A study of Mus musculus with 8 samples.

Results

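The 10 genes described here encode enzymes that activate fatty acids, and their transcripts were measured by RNA sequencing in brown adipose tissue, the fat depot that mice use to make heat. They were chosen by name: Acsl1, Acsl3, Acsl4, Acsl5 and Acsl6 (long-chain acyl-CoA synthetases), Acsf2 (acyl-CoA synthetase family member 2) and Slc27a1, Slc27a2, Slc27a3 and Slc27a4 (fatty acid transport proteins FATP1 to FATP4). All 10 were among the 54532 genes of the deposited table, each under 1 gene identifier. The mice were 4 transgenic animals labelled CLCF1-ATG (TG) and 4 wild-type animals (WT), numbered 1, 2, 3 and 5 in each group. CLCF1 belongs to the interleukin-6 family of cytokines. The labels used here give no strain, age, sex or housing temperature for either group, and do not say which promoter or cell type drives the transgene. The study's stated aim was to learn how CLCF1 impairs brown fat.

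A fatty acid cannot be burned, stored or built into a membrane until an acyl-CoA synthetase joins it to coenzyme A at the cost of ATP. Family members differ in the membranes they sit on and in the fatty acids they prefer, and FATP proteins both favour fatty acid uptake and carry acyl-CoA synthetase activity of their own, mainly towards very long chains. In brown fat, fatty acids freed from lipid droplets or taken up from blood are activated in this way, pass into mitochondria as carnitine esters and fuel heat production. Mouse ACSL1 supplies most long-chain acyl-CoA synthetase activity of fat cells.

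The deposited values are FPKM, fragments scaled to gene length and library. Clcf1 itself stood at 78.7 to 89.9 FPKM in TG and at 0.434 to 3.40 FPKM in WT, so all 8 libraries followed their genotype labels, and this value does not separate the transgene from the mouse's own gene. The reads recovered behind the values numbered 18494022 to 20183840 per TG library and 13734231 to 15751302 per WT library. Mitochondrially encoded genes held 6.09% to 7.34% of these reads in TG and 24.1% to 37.5% in WT. The tissue label was checked against brown adipocyte markers: Ucp1, the uncoupling protein of brown fat, was present in every library, at 39.7 to 135 FPKM in TG and 905 to 1762 FPKM in WT. The marker Adipoq, made by all fat cells, stood at 1548 to 2058 FPKM in TG and 599 to 714 FPKM in WT. In bulk tissue, fewer cells of a type and less RNA per cell cannot be told apart. Skeletal muscle markers were uneven within both groups, highest in TG 5 and WT 2, and the 8 tested genes are also given below without both libraries. Of 12508 genes tested, 44.1% were called different between the genotypes, 22.3% higher and 21.8% lower in TG, and the 4 TG and 4 WT values did not overlap for 42.6%. A gene was called when limma gave a Benjamini-Hochberg adjusted p below 0.05, and it was tested when at least 4 libraries reached 0.5 FPKM. Changes are given as TG minus WT in log2(FPKM + 1), so the added 1 shrinks the changes of low genes.

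The promoters of the 3 genes with the largest differences are shown first, because Slc27a2 moved in the opposite direction to Slc27a1 and Acsf2. Each stretch runs 5′ to 3′ from 250 bases before to 50 bases after a transcription start in RefSeq on GRCm38.p6, the assembly also called mm10. Capitals mark the nuclear receptor half-site AGGTCA and the GC box GGGCGG, read on both strands, so that TGACCT and CCGCCC are the same letters on the other strand. The Slc27a2 stretch is chr2:126552774-126553073 (plus strand), the Slc27a1 stretch chr8:71568621-71568920 (plus strand) and the Acsf2 stretch chr11:94601737-94602036 (minus strand). The RefSeq start of Slc27a2 lies 617 bases downstream of the start of the gene in the deposited table, and that of Acsf2 85 bases downstream.
Slc27a2: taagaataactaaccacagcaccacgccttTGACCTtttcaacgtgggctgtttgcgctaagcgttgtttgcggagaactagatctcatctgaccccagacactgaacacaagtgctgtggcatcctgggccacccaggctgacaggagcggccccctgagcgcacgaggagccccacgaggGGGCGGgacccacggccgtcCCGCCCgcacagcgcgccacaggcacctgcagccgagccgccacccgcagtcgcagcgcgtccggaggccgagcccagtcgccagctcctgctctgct
Slc27a1: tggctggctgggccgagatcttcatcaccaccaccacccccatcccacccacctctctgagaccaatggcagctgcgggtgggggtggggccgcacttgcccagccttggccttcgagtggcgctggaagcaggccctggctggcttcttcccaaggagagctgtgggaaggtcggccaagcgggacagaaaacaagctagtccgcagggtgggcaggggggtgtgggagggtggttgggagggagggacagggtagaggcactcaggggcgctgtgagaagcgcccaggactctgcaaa
Acsf2: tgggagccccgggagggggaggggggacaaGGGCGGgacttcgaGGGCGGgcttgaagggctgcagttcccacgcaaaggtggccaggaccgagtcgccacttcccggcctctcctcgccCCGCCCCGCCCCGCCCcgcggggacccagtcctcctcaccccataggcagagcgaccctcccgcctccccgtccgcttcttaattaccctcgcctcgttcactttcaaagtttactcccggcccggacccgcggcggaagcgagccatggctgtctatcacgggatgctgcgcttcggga

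Slc27a2 held 1 half-site and 2 GC boxes, the Slc27a1 stretch shown held neither, and Acsf2 held 5 GC boxes and no half-site. Slc27a1 has 3 start sites in RefSeq, and its other windows held 1 and 3 GC boxes. Across the 15 windows of the 10 genes, the half-site occurred in 2 windows, of Slc27a2 and Acsl6. That share lies near the 16.3% of all 32851 RefSeq windows of this length that hold it. Longer letters that contain the half-site were also searched on both strands: the TNAAGGTCA element matched in 1 Acsl6 window (1.28% of all windows) and the direct repeat AGGTCANAGGTCA in 0 of the 15 (0.0396% of all windows). GC boxes occurred in 12 windows, covering 9 of the 10 genes, against 35.7% of all windows. The stretches shown were rich in G and C, at 65.3% for Slc27a2, 65.7% for Slc27a1 and 69.3% for Acsf2, against a median of 52.7% over all windows. They held 25, 10 and 29 CG dinucleotides in that order, where the median window holds 7. These matches describe the letters only.

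Of the 10 genes, 2 were higher in TG (Slc27a1 and Acsf2), 2 were lower (Slc27a2 and Acsl4), 4 did not pass the test and 2 were too low to be tested. The 4 genes called are 50% of the 8 tested, near the 44.1% of all genes, so the number of calls does not set the family apart. All 4 had groups that did not overlap, 50% of the 8 against 42.6% of all genes. The median log2 change of the 8 was −0.02, against 0.01 for all genes tested. The size of one change was unusual: the fall of Slc27a2 was the 14th largest among the 12508 genes.

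**Figure D1:**
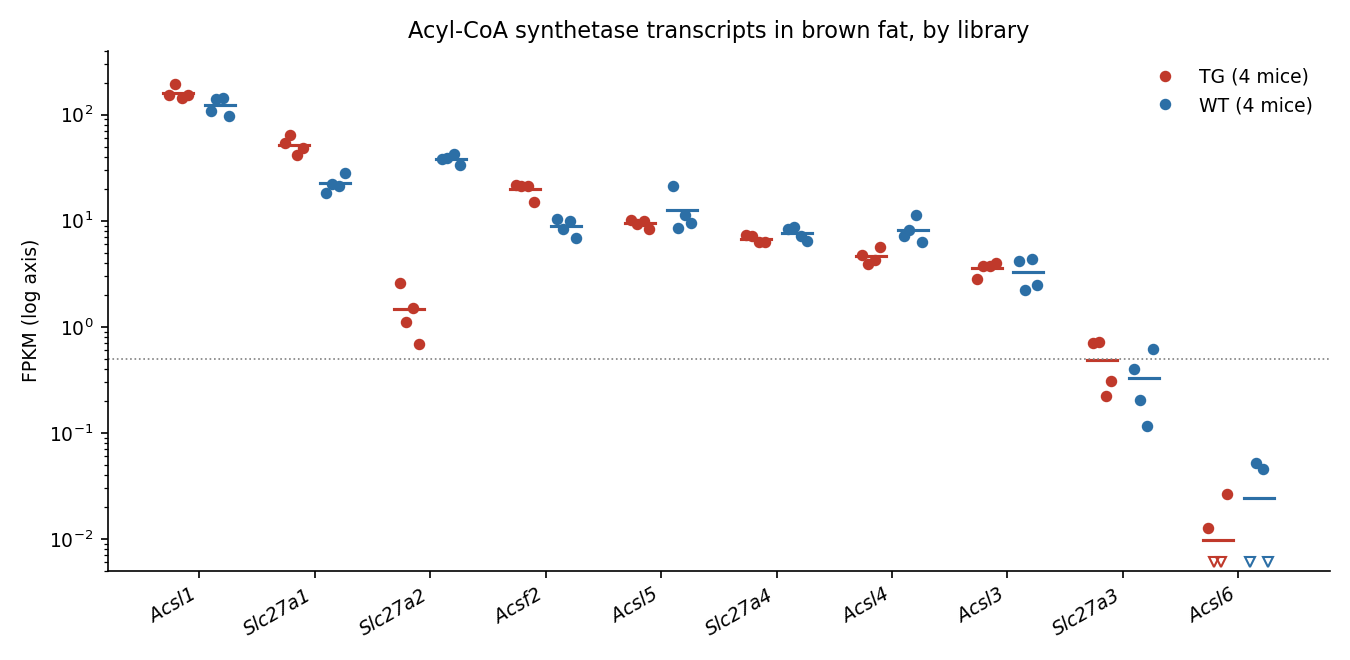
FPKM of each of the 10 genes in each library on a log axis, with TG in red to the left of WT in blue, group means as horizontal lines and values of 0 as open triangles at the bottom edge. The dotted line is the 0.5 FPKM level of the filter, and Slc27a2 shows the widest gap, with TG between 0.686 and 2.58 FPKM and WT between 33.3 and 43.0 FPKM.

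Slc27a2 encodes FATP2, a very long-chain acyl-CoA synthetase of the endoplasmic reticulum and peroxisomes that is best known from liver and kidney. It had 2.58, 1.11, 1.49 and 0.686 FPKM in TG mice 1, 2, 3 and 5, against 37.8, 38.9, 43.0 and 33.3 FPKM in the WT mice of the same numbers. Every TG value was more than 10 times below every WT value, and the WT values lay close together. Slc27a2 fell by 4.04 on the log2 scale (SE 0.207, 95% interval −4.51 to −3.58, adjusted p = 1.87e-06 in limma), and the ratio of the group means was 26.1 (1.47 ± 0.813 FPKM in TG and 38.3 ± 3.97 FPKM in WT, SD, n = 4 each). These values rest on 59 to 231 reads per TG library and 1433 to 2146 reads per WT library, so counting error is small in WT and larger in TG. The gene (ENSMUSG00000027359) lies on chromosome 2 from 126552407 to 126588243 on the plus strand. A long non-coding gene on the opposite strand, Gm26697, overlaps it but held only 1 read over the TG libraries and 10 over the WT libraries. Liver was checked as a source of FATP2 transcripts: the 5 hepatocyte markers summed to 0.836 to 2.19 FPKM in TG and 1.83 to 4.36 FPKM in WT, Alb did not exceed 0.107 FPKM in TG or 0.485 FPKM in WT, and Cyp3a11 was listed at 0 in all 8 libraries.

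Slc27a1 encodes FATP1, the transport protein typical of fat and muscle. It had 53.5, 64.1, 41.4 and 47.9 FPKM in TG mice 1, 2, 3 and 5, against 18.1, 22.4, 21.4 and 28.1 FPKM in the WT mice. All 4 TG values were above all 4 WT values, the closest pair being TG 3 and WT 5. The log2 change was 1.17 (SE 0.164, 95% interval 0.80 to 1.53, adjusted p = 0.000422 in limma), a ratio of 2.30 between means of 51.7 ± 9.64 FPKM in TG and 22.5 ± 4.16 FPKM in WT (SD, n = 4 each). Muscle also makes FATP1, and TG 5 and WT 2 carried the most muscle marker RNA of their groups. Without both libraries the log2 change of Slc27a1 was 1.20 (adjusted p = 0.00507 in limma). The gene (ENSMUSG00000031808) lies on chromosome 8 from 71568882 to 71587302 on the plus strand.

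Acsf2 encodes a mitochondrial acyl-CoA synthetase that is grouped with this family by sequence and is thought to favour medium-chain fatty acids. Its values were 21.7, 21.4, 21.3 and 15.1 FPKM in TG mice 1, 2, 3 and 5, against 10.3, 8.27, 9.93 and 6.92 FPKM in WT. TG 5 stood below the other TG mice but above every WT mouse. Acsf2 rose by a log2 change of 1.08 (SE 0.156, 95% interval 0.73 to 1.43, adjusted p = 0.000483 in limma), a ratio of 2.24 between 19.9 ± 3.21 FPKM in TG and 8.87 ± 1.57 FPKM in WT (SD, n = 4 each). It lies on chromosome 11 from 94557102 to 94601871 on the minus strand (ENSMUSG00000076435).

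Acsl4 encodes the synthetase that prefers arachidonic acid and related polyunsaturated fatty acids. It had 4.70, 3.92, 4.24 and 5.60 FPKM in TG mice 1, 2, 3 and 5, against 7.21, 8.09, 11.4 and 6.25 FPKM in WT. The groups were close at TG 5 and WT 5 but did not overlap. Acsl4 fell by 0.70 on the log2 scale (SE 0.170, 95% interval −1.08 to −0.31, adjusted p = 0.00869 in limma). The call depended on how libraries were scaled: the log2 change was −0.33 (adjusted p = 0.152) after division by all recovered reads and −0.37 (adjusted p = 0.0818) after rescaling to equal sums without the 20 most abundant genes and those for haemoglobin and mitochondrial transcripts. After division by reads outside the mitochondrial chromosome the log2 change of Acsl4 was −0.67 (adjusted p = 0.00815 in limma). Division by all recovered reads moved the median of all genes to 0.32, and relative to that median Acsl4 stood at −0.65, against −0.71 relative to the median of the deposited values. The gene (ENSMUSG00000031278) lies on chromosome X from 142317993 to 142390535 on the minus strand.

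For each of these 4 called genes, a two-sided exact permutation test over the 70 ways to assign the libraries gave p = 0.0286, the smallest that 4 against 4 allow. Slc27a2, Slc27a1 and Acsf2 were called under all 22 alternative settings, and Acsl4 under 20 of 22.

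Acsl1, the main long-chain synthetase of fat cells, was the most abundant of the 10 genes in every library and did not pass the test. It had 152, 194, 143 and 153 FPKM in TG mice 1, 2, 3 and 5, against 109, 139, 144 and 97.7 FPKM in WT. Only TG 3, at 143 FPKM, lay below a WT library, WT 3 at 144 FPKM. The log2 change was 0.40 (SE 0.158, 95% interval 0.04 to 0.75), with an unadjusted p of 0.0313 and an adjusted p of 0.0666 in limma over all genes. The exact permutation test gave p = 0.0571. Acsl1 was called higher under 7 of 22 alternatives, among them division by all recovered reads (0.82 on the log2 scale, adjusted p = 0.00339) and leaving out WT 3 (adjusted p = 0.0421), and over all 22 the limma adjusted p ran between 0.002 and 0.178. The gene (ENSMUSG00000018796) lies on chromosome 8 from 46471037 to 46536051 on the plus strand.

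**Figure D2:**
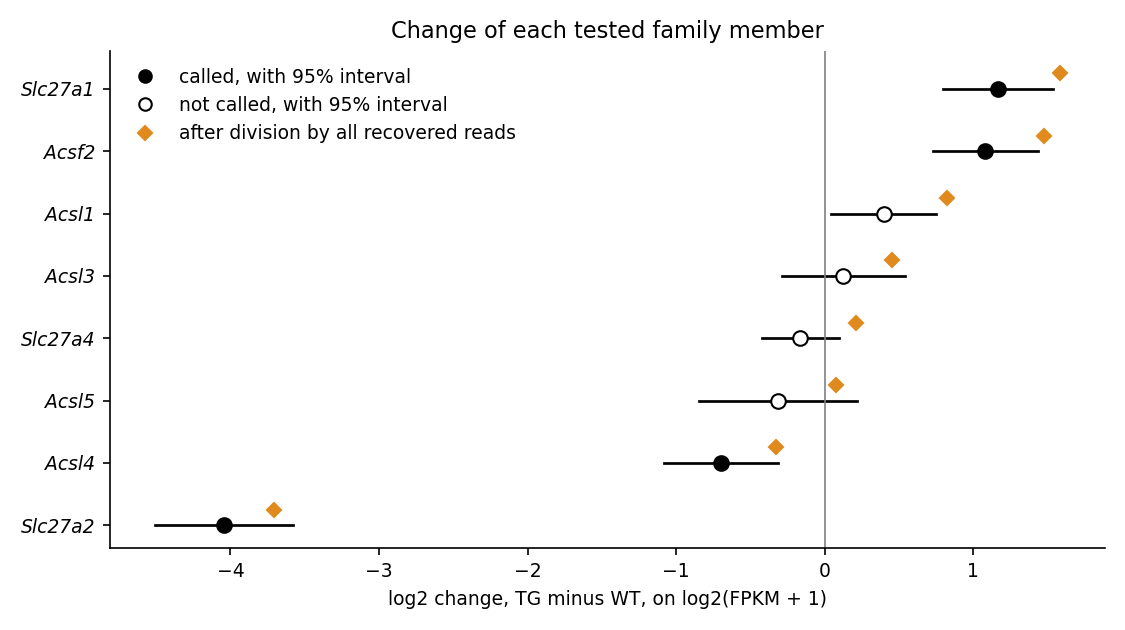
Log2 change (TG minus WT, log2(FPKM + 1) scale) of the 8 tested genes with 95% limma intervals, filled circles marking the genes called, open circles the others and orange diamonds the change after division by all recovered reads. Slc27a2 stands alone at −4.04, Slc27a1 and Acsf2 lie near 1.1, and for Acsl4, Acsl1 and Acsl3 the call changes with the scaling.

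The other 3 tested genes did not pass. Acsl5, a synthetase of mitochondria and endoplasmic reticulum, averaged 9.42 ± 0.794 FPKM in TG and 12.7 ± 5.89 FPKM in WT (SD, n = 4 each; log2 change −0.31, 95% interval −0.85 to 0.22, adjusted p = 0.312 in limma). WT 1 held 21.4 FPKM, above every other library, and without it the log2 change was −0.05. Acsl5 overlaps Zdhhc6 on the opposite strand, which averaged 4.26 FPKM in TG and 2.75 FPKM in WT, and the sources used here do not say how the counting treated strand. Slc27a4, which encodes FATP4, had 6.25 to 7.29 FPKM in TG and 6.47 to 8.79 FPKM in WT (log2 change −0.16, 95% interval −0.42 to 0.09, adjusted p = 0.277 in limma). Acsl3, a synthetase of the endoplasmic reticulum that moves onto growing lipid droplets, had 2.85 to 4.04 FPKM in TG and 2.23 to 4.33 FPKM in WT (log2 change 0.12, 95% interval −0.29 to 0.54, adjusted p = 0.613 in limma). Acsl3 shares its span with Utp14b on the same strand, at a mean of 0.454 FPKM in TG and 0.851 FPKM in WT. The intervals of Acsl5 and Acsl3 include changes of more than 0.5 on the log2 scale in 1 direction. After division by all recovered reads, the log2 changes were 0.08 for Acsl5, 0.21 for Slc27a4 and 0.46 for Acsl3, turning the direction of Acsl5 and Slc27a4 and bringing Acsl3 past the threshold (adjusted p = 0.0414 in limma). With only the reads outside the mitochondrial chromosome in the divisor, the changes were −0.29 for Acsl5, −0.14 for Slc27a4 and 0.15 for Acsl3. None of these passed (limma adjusted p of 0.317, 0.368 and 0.491 in that order).

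Slc27a3 and Acsl6 stayed below the filter. Slc27a3, which encodes FATP3, had 0.702, 0.717, 0.221 and 0.306 FPKM in TG mice 1, 2, 3 and 5, against 0.396, 0.203, 0.117 and 0.612 FPKM in WT. Only 3 libraries reached 0.5 FPKM, and the groups overlapped. Acsl6, the synthetase typical of brain, had 9 reads over the 4 TG libraries and 13 over the 4 WT libraries and did not exceed 0.0264 FPKM in TG or 0.0525 FPKM in WT.

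Although single genes moved apart, the summed level of the 10 genes differed little in the deposited values. The sum was 259 ± 32.7 FPKM in TG and 225 ± 26.7 FPKM in WT (SD, n = 4 each), a ratio of 1.15, and the groups overlapped (232 to 306 FPKM in TG, 191 to 253 FPKM in WT). After division by all recovered reads the sum was 303 ± 36.9 in TG and 197 ± 33.1 in WT, a ratio of 1.54 without overlap, so the size of the summed difference rests on the scaling. Sums over genes are given without a test, since the genes were chosen with results of these data known.

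The makeup of the sum differed more. A factor applied to a whole library leaves it as it is, whereas quantile normalisation, which moves genes by rank, does not. The shares also depend on the gene lengths used, for Acsl1 10483 bases against 3897 in its longest coding transcript. Shares per base of the coding transcripts were not computed. Acsl1 made up 62.1% ± 1.85 in TG and 54.3% ± 4.27 in WT, with every TG library above every WT library. That direction rests on counting Slc27a2 in the sum: without Slc27a2, a calculation added after the values were seen, Acsl1 made up 62.4% ± 1.66 in TG and 65.5% ± 4.79 in WT (SD, n = 4 each), and the groups overlapped. Slc27a1 made up 17.8% to 21.0% in TG and 8.35% to 14.7% in WT. Acsf2 made up 7.73% ± 1.34 in TG and 3.95% ± 0.576 in WT, and Acsl4 1.82% ± 0.422 in TG and 3.62% ± 0.580 in WT. Slc27a2 made up 0.575% ± 0.328 in TG and 17.1% ± 0.469 in WT (SD, n = 4 each throughout). Its share in the WT libraries lay between 16.4% and 17.4%. Of the other 9 genes without Slc27a2, Slc27a1 made up 18.0% to 21.1% in TG and 10.1% to 17.8% in WT, Acsf2 7.78% ± 1.37 in TG and 4.77% ± 0.712 in WT, and Acsl4 1.83% ± 0.423 in TG and 4.37% ± 0.694 in WT (SD, n = 4 each), still without overlap.

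**Figure D3:**
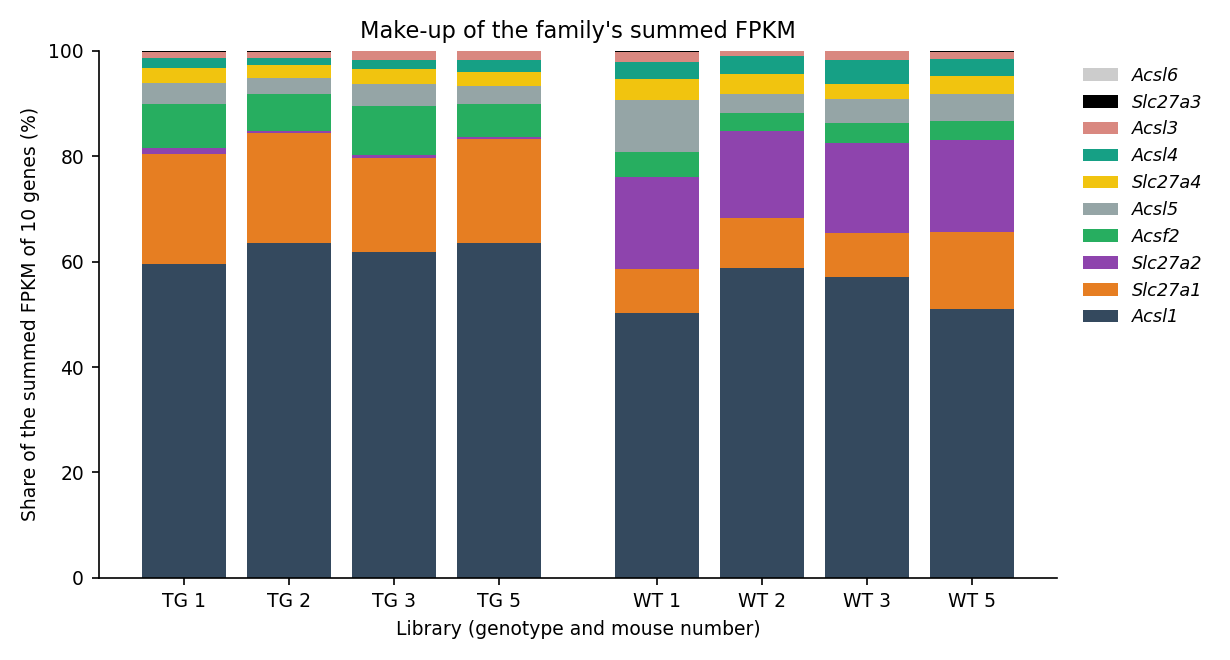
Share (percent) of the summed FPKM of the 10 genes taken by each gene in each library, with the 4 TG libraries to the left of the 4 WT libraries. The Slc27a2 segment averages 0.575% in TG and 17.1% in WT, while the Slc27a1 segment averages 19.9% in TG and 10.2% in WT.

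Among the transport protein genes, Slc27a1 held most of the summed FPKM in TG, while in WT Slc27a1 and Slc27a2 shared it. The sum of Slc27a1 to Slc27a4 was 60.4 ± 10.4 FPKM in TG and 68.8 ± 3.12 FPKM in WT (SD, n = 4 each), with overlapping groups. Within that sum Slc27a1 held 85.5% ± 2.11 in TG and 32.7% ± 5.77 in WT, whereas Slc27a2 held 2.45% ± 1.31 in TG and 55.6% ± 4.99 in WT. Much of that shift rests on counting Slc27a2 in the sum. Without Slc27a2, a calculation added after the values were seen, Slc27a1 held 87.6% ± 1.14 in TG and 73.3% ± 5.25 in WT. These groups did not overlap (SD, n = 4 each). Slc27a4 held 11.3% ± 1.19 in TG and 11.2% ± 1.72 in WT of the sum of all 4 genes. Its share of all 10 genes was 2.62% ± 0.215 in TG and 3.45% ± 0.438 in WT. Of the 9 genes without Slc27a2 it was 2.64% ± 0.224 in TG and 4.16% ± 0.529 in WT (SD, n = 4 each). Both of these shares were without overlap. The ratio of Slc27a1 to Slc27a2 FPKM was 20.7 to 69.9 in TG and 0.479 to 0.843 in WT, so in deposited FPKM Slc27a1 was above Slc27a2 in every TG library and below it in every WT library. The WT order rests on the gene lengths used: per base of the longest coding transcript the ratio was 33.6 to 113 in TG and 0.777 to 1.37 in WT, with Slc27a1 the higher gene in 1 of 4 WT libraries.

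Among Acsl1, Acsl3, Acsl4, Acsl5 and Acsl6 the change in makeup was smaller. Acsl1 held 90.0% ± 1.32 of their sum in TG and 83.3% ± 4.67 in WT, and Acsl4 held 2.63% ± 0.583 in TG and 5.55% ± 0.731 in WT (SD, n = 4 each), both without overlap. The share of Acsl5 was 5.34% ± 0.820 in TG and 8.84% ± 4.32 in WT and overlapped. Of these 5 genes Acsl1 was the highest in each library, at 88.9% or more of the sum in TG and 76.9% or more in WT. These shares, too, rest on the gene lengths used.

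Ratios between genes of the same library were compared to ask which pairs changed to different degrees, since a factor applied to a whole library changes such a ratio only through the added pseudocount of 1. Quantile normalisation is not such a factor, and under it the log2 change of Acsl1 was 0.77 and that of Acsl4 −0.67. Of the 28 pairs among the 8 tested genes, 19 differed between genotypes in two-sided exact permutation tests at an adjusted p of 0.0421 (Benjamini-Hochberg over the 28 pairs). All 19 had the smallest unadjusted p the design allows, 0.0286, and groups that did not overlap. Their shared adjusted p therefore depends only on how many pairs reach that floor, and 7 of the 19 hold Slc27a2. Adjusted over only the pairs without Slc27a2, those at the floor would not have an adjusted p below 0.05. Their calls therefore rest on counting the 7 pairs with Slc27a2. Slc27a2 differed from all 7 others. The log2 ratio of Slc27a1 to Slc27a2 averaged 4.46 in TG and −0.75 in WT, a difference of 5.21, and that of Acsf2 to Slc27a2 differed by 5.12 in the same direction. For Acsl1 and Acsl4, the most abundant synthetase and the one for polyunsaturated fatty acids, the ratios of the 2 genotypes did not overlap. Their log2 ratio averaged 4.85 ± 0.324 in TG and 3.75 ± 0.162 in WT, a difference of 1.09. Between Acsf2 and Slc27a1 no difference passed: their log2 ratio averaged −1.33 ± 0.309 in TG and −1.25 ± 0.481 in WT (SD, n = 4 each), and the difference of −0.08 had an adjusted p of 0.80 in the exact permutation tests. That p does not show that the 2 genes changed alike, given these SDs. Acsl1 against Slc27a1 (adjusted p = 0.0727) and Acsl1 against Acsl5 (adjusted p = 0.104) did not pass in these exact permutation tests.

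The order of the genes by FPKM was Acsl1, Slc27a1, Acsf2, Acsl5, Slc27a4, Acsl4, Acsl3 and Slc27a2 in TG, and Acsl1, Slc27a2, Slc27a1, Acsl5, Acsf2, Acsl4, Slc27a4 and Acsl3 in WT, going by group means from the highest. Slc27a2 was thus the second gene in WT and the eighth in TG. Several neighbours in these orders differed by less than their spread: in WT, Acsl5 at 12.7 ± 5.89, Acsf2 at 8.87 ± 1.57, Acsl4 at 8.23 ± 2.22 and Slc27a4 at 7.71 ± 1.05 FPKM (SD, n = 4 each). FPKM depends on the length used for each gene. The deposited length equals the length of all annotated exons of a gene in GENCODE M21, 10483 bases for Acsl1 and 5835 for Slc27a1, where the longest coding transcripts have 3897 and 2795 bases. Per base of the longest coding transcript, Slc27a2 averaged 1.89 in TG and 49.2 in WT and Slc27a1 averaged 108 in TG and 47.0 in WT, so in WT their order is not settled against the spread. The ratio of a gene's mean FPKM between genotypes does not depend on this length, but the change in log2(FPKM + 1) does, through the added 1.

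Several marker lists of cell types differed between the genotypes and others did not, where 44.1% of all genes tested were called. Summed markers of all fat cells reached 19481 to 30678 FPKM in TG and 6667 to 8707 FPKM in WT, with 5 of 6 genes called higher. White adipocyte markers summed to 1871 to 2333 FPKM in TG and 469 to 526 FPKM in WT, with 5 of 5 tested genes called higher, and brown adipocyte markers to 594 to 997 FPKM in TG and 6502 to 9143 FPKM in WT, with 5 of 7 called lower. Macrophage markers summed to 255 to 297 FPKM in TG and 145 to 224 FPKM in WT (5 of 6 called higher). Endothelial markers summed to 10.6 to 21.7 FPKM in TG and 44.3 to 101 FPKM in WT, and markers of smooth muscle and pericytes to 19.0 to 40.4 FPKM in TG and 107 to 140 FPKM in WT, with all 5 genes of each list called lower. Erythroid markers summed to 1371 to 1742 FPKM in TG and 4516 to 11931 FPKM in WT, with 3 of 3 tested genes lower. Neutrophil markers summed to 3.95 to 25.8 FPKM in TG and 12.5 to 384 FPKM in WT (3 of 3 tested lower). Fibroblast markers summed to 88.7 to 134 FPKM in TG and 85.4 to 133 FPKM in WT (of 5 tested, 1 higher and 1 lower). Schwann cell and neuron markers summed to 3.50 to 8.78 FPKM in TG and 54.9 to 78.8 FPKM in WT (1 of 3 tested lower). T cell markers summed to 1.27 to 7.68 FPKM in TG and 1.24 to 4.13 FPKM in WT (1 of 3 tested higher). For B cells the sums were 1.36 to 13.2 FPKM in TG and 1.33 to 2.02 FPKM in WT (1 of 2 tested higher). Skeletal muscle markers summed to 121 to 1438 FPKM in TG and 11.6 to 2539 FPKM in WT, and 0 of 7 tested genes were called by limma. The part of these cell types in the levels of the synthetase genes was not tested. Without TG 5 and WT 2 the limma log2 changes were −3.87 for Slc27a2, 1.18 for Acsf2 (adjusted p = 0.00177) and −0.77 for Acsl4 (adjusted p = 0.0255), beside the value of Slc27a1 given above. The uncalled genes stood at 0.48 for Acsl1, −0.05 for Acsl3, −0.41 for Acsl5 and −0.08 for Slc27a4, with limma adjusted p between 0.101 and 0.875. The summed FPKM ratio was 1.20.

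A list of other acyl-CoA synthetases held enzymes for short- and medium-chain acids and other acyl groups and some further long- and very long-chain enzymes, among them Slc27a5, Acsbg1 and Acsbg2, which stayed below the filter and were not tested. Of 14 genes found, 7 were tested, of which 3 were higher, 3 lower and 1 not called. The share called was 85.7% of these 7, against 44.1% of all genes tested. The median log2 change was −0.35, against 0.01 for all genes. Acss1, which makes acetyl-CoA in mitochondria, fell by 2.29 on the log2 scale, with 3.73 ± 0.643 FPKM in TG and 22.0 ± 2.02 FPKM in WT (limma adjusted p = 1.87e-06). Acsm3, a mitochondrial medium-chain synthetase, fell by 1.63 (adjusted p = 4.77e-05), and Acsf3, a mitochondrial synthetase that activates malonate, fell by 1.04 (adjusted p = 0.000132), with 13.1 FPKM on average in TG and 28.0 FPKM in WT. Acss3, a mitochondrial propionyl-CoA synthetase, rose by 0.75 (adjusted p = 0.000632; all from limma, with 4 mice per group).

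**Figure D4:**
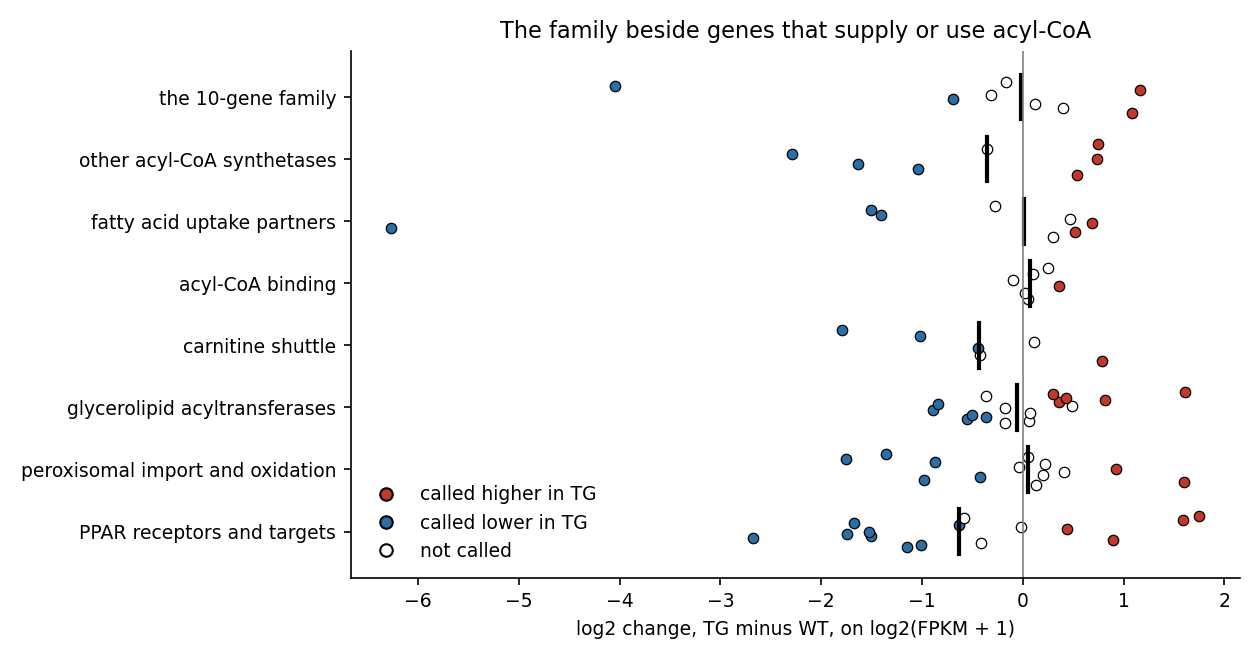
Log2 change (TG minus WT, log2(FPKM + 1) scale) of each tested gene in the 10 genes described and in the 7 lists of neighbouring steps, red points marking genes called higher by limma, blue points those called lower, open points those not called and vertical bars the medians. Medians run between −0.63 for PPAR receptors and targets and 0.08 for acyl-CoA binding proteins, and every list except acyl-CoA binding proteins holds calls in both directions.

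Steps before and after the synthetases were looked at through lists of genes. The share called was 62.5% for uptake partners, 66.7% for the carnitine shuttle and 62.5% for acyltransferases. It was 16.7% for acyl-CoA binding proteins, 53.8% for the peroxisome and 80% for PPAR receptors and targets. Of all genes tested, 44.1% were called. These lists are short, and whether their shares differ from that of all genes was not tested. Among 8 tested partners of fatty acid uptake, 2 were higher, 3 lower and 3 not called, with a median of 0.01. Fabp3, a fatty acid carrier inside the cell, fell to 21.4 ± 8.71 FPKM in TG, against 1713 ± 663 FPKM in WT (SD, n = 4 each; log2 change −6.27, limma adjusted p = 2.17e-06). Cd36, the main fatty acid receptor of fat cells, stood at 541 ± 40.2 FPKM in TG and 378 ± 37.2 FPKM in WT (log2 change 0.52, limma adjusted p = 0.00683). Without TG 5 and WT 2, and so with fewer mice, its log2 change was 0.50 (limma adjusted p = 0.0572). Gpihbp1, which holds lipoprotein lipase on capillary walls, fell by 1.51 (limma adjusted p = 0.00175). The endothelial markers given above were also lower in TG, and whether the values are linked was not tested. Got2, the mitochondrial aspartate aminotransferase also described as a fatty acid binding protein of the cell surface, fell by 1.41 (limma adjusted p = 0.000316). Its values are uncertain, since Got2 has many processed pseudogenes.

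The carnitine shuttle, which carries activated fatty acids into mitochondria, had 1 gene higher, 3 lower and 2 not called of 6 tested, with a median log2 change of −0.43. Slc25a20, the carnitine-acylcarnitine translocase, ranged over 19.1 to 22.1 FPKM in TG and 48.6 to 92.4 FPKM in WT (log2 change −1.79, limma adjusted p = 7.02e-05). Slc22a5, the carnitine importer of the cell surface, fell by 1.02 (limma adjusted p = 0.000603), and Cpt1a, which forms acylcarnitine at the outer mitochondrial membrane, rose by 0.78 (limma adjusted p = 0.00927). The Cpt1a groups overlapped, at 3.49 to 6.40 FPKM in TG and 1.90 to 3.62 FPKM in WT (p = 0.0571 in the exact permutation test). Crat, carnitine acetyltransferase, fell by 0.44 (limma adjusted p = 0.0169), but 5 of 22 alternatives ended that call, with adjusted p up to 0.916. Cpt1b, the form of muscle and brown fat, reached at most 0.042 FPKM in TG and 0.648 FPKM in WT and was not tested. Its span lies inside that of another gene of the table on the same strand, Gm44502, so this value is uncertain.

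Of 16 tested acyltransferases that place acyl-CoA into glycerolipids, 5 were higher, 5 lower and 6 not called, with a median of −0.06. Mogat1, a monoacylglycerol acyltransferase, rose by 1.61 (limma adjusted p = 0.000323) and Lpcat1, a lysophosphatidylcholine acyltransferase, by 0.81 (adjusted p = 0.00184). Gpat4, which opens glycerolipid synthesis, fell by 0.84 (limma adjusted p = 0.000365), and Dgat2, which closes triglyceride synthesis, fell by 0.89 (adjusted p = 0.000565), a call lost under quantile normalisation (adjusted p = 0.0943). Leaving out TG 1 or TG 3 reduced the number higher in this list to 3, and leaving out TG 5 and WT 2 together reduced it to 2. Among 6 tested acyl-CoA binding proteins only Acbd5, a tether of peroxisomes, was called (log2 change 0.36, limma adjusted p = 0.0299), and that call was lost without TG 2, TG 3, WT 2 or WT 5 (adjusted p up to 0.0917).

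In the peroxisome, where very long-chain fatty acids activated by FATP2 and its relatives are shortened, 2 of 13 tested genes were higher, 5 lower and 6 not called, with a median of 0.05. Abcd2, an importer of very long-chain acyl-CoA, averaged 80.5 ± 10.5 FPKM in TG and 25.8 ± 2.72 FPKM in WT (SD, n = 4 each; log2 change 1.60, limma adjusted p = 1.23e-05). Ehhadh, an enzyme of peroxisomal beta-oxidation, averaged 10.1 ± 1.28 FPKM in TG and 36.5 ± 6.51 FPKM in WT (SD, n = 4 each; log2 change −1.75, limma adjusted p = 1.8e-05). Phyh, which starts the breakdown of phytanic acid, fell by 1.36 (limma adjusted p = 0.000433).

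Several genes of the family are known targets of PPAR nuclear receptors, so the receptors and other targets were listed as well. Of 15 tested, 4 were higher, 8 lower and 3 not called, with a median log2 change of −0.63. Ppara, the receptor that drives fatty acid oxidation genes, averaged 1.67 ± 0.376 FPKM in TG and 6.65 ± 0.351 FPKM in WT (SD, n = 4 each; log2 change −1.53, limma adjusted p = 1.17e-05). Rxra, the partner receptor, averaged 29.2 ± 1.09 FPKM in TG and 9.05 ± 1.07 FPKM in WT (log2 change 1.59, limma adjusted p = 4.81e-06). Ppargc1b, a coactivator, fell by 1.67 (limma adjusted p = 9.59e-06), and Pdk4, a kinase that restrains pyruvate oxidation, fell by 2.68 (limma adjusted p = 8e-05). Pparg, the receptor of fat cell formation, had a log2 change of −0.01 (limma adjusted p = 0.947). It was named after its value was seen. Across the 7 lists together 71 genes were tested, of which 18 were higher, 27 lower and 26 not called. Of all 12508 genes tested, 22.3% were higher and 21.8% lower. Division by all recovered reads made the number higher 2 for the carnitine shuttle, 4 for acyl-CoA binding proteins, 4 for uptake partners and 7 for the peroxisome, and the number of acyltransferases lower 2. Without TG 5 and WT 2 0 uptake partners were called higher, and without TG 2 the number was 1.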

How the data were processed

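RNA from brown adipose tissue of 4 TG and 4 WT mice was sequenced. Per the labels' protocols, TRIzol was used for extraction, and an Illumina TruSeq kit turned 1 ug of total RNA into each library. HISAT2 2.0.5, featureCounts 1.5.0-p3, bcl2fastq and the mm10 build are named in the submitters' processing notes. Neither strand setting nor annotation release was given there. The authors deposited FPKM for 54532 genes. Multiplied by gene length, these values fell on whole multiples of a constant step per library (largest distance from a whole number 1.61e-07), which gave the reads behind each value. The reads summed to 0.822 to 0.883 times the divisor implied by the step in TG and 1.02 to 1.22 times in WT. The deposited FPKM were thus not scaled by all recovered reads, and the submitters' rule is not given. The mitochondrial share of the reads also differed between the groups. Division by reads outside the mitochondrial chromosome gave a median log2 change of 0.03 over all genes. That median was 0.01 as deposited and 0.32 after division by all recovered reads.

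Tests ran in limma 3.58.1 (R 4.3.3, trended eBayes, two-sided) on log2(FPKM + 1) for the 12508 genes at or above 0.5 FPKM in 4 or more libraries, with Benjamini-Hochberg adjustment over all 12508. Exact permutation tests (scipy 1.17.1) served for single values. All p-values test the difference between genotypes with single mice as the unit. Limma also draws on the variance of all tested genes, and the exact tests depend on how libraries are assigned to groups. Reads of near-identical gene copies are not separable in such a table, so genes with many processed pseudogenes, such as Got2, have uncertain values. The code was first tested on simulated data. The genes described and the lists were chosen with earlier results of these data known. All 10 genes are named, and from each list up to 4 called genes with the lowest p, of which 1 is not reported here; other genes were named after their values were seen. The lists hold 95 genes, 94 of them in the table. Alternatives were other pseudocounts (0.1 and 0.01), no filter or 5 FPKM, 6 scalings, limma's voom on the recovered reads, eBayes without trend, a block for replicate number, and fits without 1 library or without TG 5 and WT 2 together. RefSeq supplied the promoters, and matplotlib 3.10.9 drew the figures.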

Additional observations from a re-analysis of the deposited data

Results flagged for a closer look

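Acsf2 in TG 5 stood apart from the other TG mice, at 15.1 FPKM against 21.3 to 21.7 FPKM in the others. The gap was 0.938 of the group's range, above the 95% critical value of Dixon's test. It was the only 1 of 26 values by group (the 10 genes and 3 sums) examined that did so, where chance gives about 1 in 20. TG 5 also carried the most skeletal muscle marker RNA of the TG libraries, and whether the values are linked was not tested.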

How the results depend on the processing

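Each setting below was applied alone. The limma calls of Slc27a2, Slc27a1 and Acsf2 held under all 22 alternatives, with adjusted p no higher than 5.27e-05, 0.00507 and 0.00245 for those genes in that order. Dividing by all recovered reads gave 5536 genes higher and 1442 lower, and rescaling without abundant genes gave 5287 higher and 1546 lower; either left 4 of the 10 genes higher (Acsl1 and Acsl3 being added) and 1 lower, and 32 genes of the neighbouring lists higher. Under those settings the uncalled log2 changes of Acsl5 became 0.0787 and 0.0345 and those of Slc27a4 became 0.21 and 0.17, against −0.31 and −0.16 as deposited, and the summed FPKM ratio was 1.54 with the first. These scalings raise the median of all genes to 0.32 and 0.28. Division by reads outside the mitochondrial chromosome gave a median of 0.03, with 2930 genes higher and 2636 lower. Under it Acsl1 was called higher (0.42, limma adjusted p = 0.0369) and Acsl4 stayed lower. A filter of 5 FPKM gave 1445 higher, 1703 lower and 10 list genes higher, since fewer genes are tested. Without WT 2 and TG 5, 10 list genes were higher and Acsl3 stood at −0.0468. Leaving out 1 library at a time gave Acsl3 −0.001 (without WT 2) to 0.2394. The same fits gave 2278 to 2743 genes higher and 2291 to 2819 lower, 2 to 3 of the 10 genes higher and 2 lower, 14 to 21 list genes higher and 25 to 29 lower, and a summed ratio of 1.08 to 1.20. Counts of single lists moved by over 1.5 times in 32 of 308 combinations of list, direction and setting. Without Slc27a2 in the sum, the Acsl1 share in TG minus WT was −3.0153 percentage points, against 7.78 with it. Pair tests were not repeated without a library.

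Mice of the same number did not deviate together (correlations −0.24 to 0.04, and 0 of 8 libraries correlated best with their own number). With the replicate number as a block, 2389 genes were higher and 2458 lower, and again 2 of the 10 genes were higher and 2 lower.

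Depth limits Slc27a3 and Acsl6, with 4 to 43 and 0 to 7 reads per library, and intervals on other genes cover only 4 mice per group.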
